A study of Mus musculus with 6 samples.

Results

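Glycolysis turns glucose into pyruvate and lactate, and many of its genes are also induced when oxygen is low. The levels of 33 such genes were followed in cultured mouse muscle-derived stem/progenitor cells (MDSPCs). The 33 were a fixed list: 19 enzymes from the hexokinases to the lactate dehydrogenases, 4 glucose and lactate transporters, 6 kinases that steer pyruvate or the phosphofructokinase step, and 4 genes of the hypoxia response. All 33 were found among the 21485 gene identifiers shared by all 6 count matrices. Young MDSPCs (young 1 to 3) and old MDSPCs (old 1 to 3) were each represented by 3 populations, prepared by serial preplating of enzyme-digested skeletal muscle on collagen and grown in proliferation medium with fetal bovine and horse serum. Transcripts were counted by droplet 3′ single-cell sequencing with unique molecular identifiers (UMIs), which tag each captured RNA molecule once. The labels call the populations biological replicates and name no treatment, but do not state the age, sex or strain of the mice, the oxygen level of the culture, or whether 1 animal or a pool gave each population, so the spread between populations may be in part technical.

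Hexokinase traps glucose in the cell, phosphofructokinase commits it to glycolysis, and lactate dehydrogenase interconverts pyruvate and lactate while pyruvate dehydrogenase kinases hold pyruvate back from the mitochondria. Several steps have paralogs with tissue preference, and mature skeletal muscle is known for the muscle forms of phosphofructokinase (Pfkm), phosphoglycerate mutase (Pgam2) and enolase (Eno3). Under low oxygen the factor encoded by Hif1a escapes degradation that starts with prolyl hydroxylases such as the one encoded by Egln3, binds a short DNA element with an ACGTG core, and raises transporters, glycolytic enzymes and Bnip3, a mitophagy receptor.

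Of 62849 deposited barcodes, 61673 were kept as cells, with median depths of 13001 to 19951 UMIs per cell in a population. Young 1 and old 1 were counted on a shorter gene list (21849 features) than the other 4 populations (32285 features). Myogenic progenitor markers (Pax7, Myf5, Myod1, Des and 3 others) summed to 101 to 1585 CPM (a gene's count relative to the population's total). Myod1 (42.3 to 963 CPM) and Itga7 (18.8 to 87.7 CPM) were present throughout, but Pax7 was at 0.0245 CPM in young 3, Myf5 at 0.00883 CPM in young 1 and Chrdl2 at most 0.122 CPM. The 5 endothelial markers summed to at most 1.20 CPM. Tyrobp (blood), Sox10 (Schwann cells) and Lum (fibro-adipogenic cells) had 3 counts or fewer in every population, although the 7 fibro-adipogenic markers summed to 203 to 455 CPM. Some chromosomes stood apart in single populations: the median gene on chromosome X was 0.69 above its mean in old 2 on the log2 scale, and shifts of 0.32 were seen on chromosomes 11 and 13 in old 2, 0.37 on chromosome 6 in young 3 and 0.20 on chromosome 4 in young 2. Between 24 and 41 barcode sequences were shared by any pair of populations.

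Promoter sequence is shown for 6 of the genes on which the results below turn: both mutases and the muscle enolase, which changed with muscle differentiation, and 3 hypoxia-responsive genes, of which Egln3 and Hk2 differed widely between populations and Bnip3 rose with differentiation. RefSeq (GRCm38.p6) gave promoters for 31 of the 33 genes, and Slc2a3 and Ndrg1 were not among them. Each run below holds the 250 bases before a gene's start, 5′ to 3′ on the strand of the gene. For the paralogs capitals mark CANNTG, the E-box bound by myogenic factors such as those encoded by Myod1 and Myog.
Pgam2, chr11:5803797-5804046, minus strand: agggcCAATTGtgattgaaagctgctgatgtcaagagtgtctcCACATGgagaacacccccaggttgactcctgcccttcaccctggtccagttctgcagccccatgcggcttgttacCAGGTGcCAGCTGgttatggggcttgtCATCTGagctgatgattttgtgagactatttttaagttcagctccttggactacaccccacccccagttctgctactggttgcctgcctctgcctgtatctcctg
Pgam1, chr19:41911621-41911870, plus strand: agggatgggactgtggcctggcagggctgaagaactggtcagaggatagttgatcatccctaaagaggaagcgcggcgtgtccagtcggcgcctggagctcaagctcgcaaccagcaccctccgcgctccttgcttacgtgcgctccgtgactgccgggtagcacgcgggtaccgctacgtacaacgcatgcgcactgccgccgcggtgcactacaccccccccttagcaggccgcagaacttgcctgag
Eno3, chr11:70656926-70657175, plus strand: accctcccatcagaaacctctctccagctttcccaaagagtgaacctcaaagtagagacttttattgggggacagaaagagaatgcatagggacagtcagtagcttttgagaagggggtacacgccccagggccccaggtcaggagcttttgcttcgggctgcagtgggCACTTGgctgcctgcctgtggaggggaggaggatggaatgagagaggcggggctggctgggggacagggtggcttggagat
The muscle mutase gene Pgam2 held 5 CANNTG matches and 0 matches to ACGTG, and its ubiquitous paralog Pgam1 held 0 and 1. The enolases did not show that order: the muscle gene Eno3 held 1 CANNTG match, while the ubiquitous Eno1 held 2 at 1 of its 3 starts and 0 at the other two. Of the phosphofructokinases, the liver-type Pfkl held 3 and the muscle-type Pfkm held 3, 0, 1 and 1 at its 4 starts.

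For the hypoxia-responsive genes capitals mark ACGTG, which reads CACGT on the opposite strand.
Bnip3, chr7:138909507-138909756, minus strand: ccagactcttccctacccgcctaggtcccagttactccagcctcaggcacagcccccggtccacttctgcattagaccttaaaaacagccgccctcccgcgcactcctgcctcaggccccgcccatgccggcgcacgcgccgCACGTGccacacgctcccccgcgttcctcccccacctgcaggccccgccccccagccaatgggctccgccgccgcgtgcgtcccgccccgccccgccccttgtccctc
Egln3, chr12:54203875-54204124, minus strand: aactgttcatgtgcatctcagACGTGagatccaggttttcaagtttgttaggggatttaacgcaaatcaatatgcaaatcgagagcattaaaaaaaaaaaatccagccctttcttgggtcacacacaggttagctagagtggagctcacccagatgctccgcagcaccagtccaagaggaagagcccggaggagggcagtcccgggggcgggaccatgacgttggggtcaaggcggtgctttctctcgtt
Hk2, chr6:82774455-82774704, minus strand: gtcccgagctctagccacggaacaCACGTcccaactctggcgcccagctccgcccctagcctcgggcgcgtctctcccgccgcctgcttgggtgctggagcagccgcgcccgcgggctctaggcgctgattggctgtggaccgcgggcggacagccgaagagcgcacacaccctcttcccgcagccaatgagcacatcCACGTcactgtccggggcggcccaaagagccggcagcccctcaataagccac
Bnip3 held CACGTG, which counts as 2 matches because ACGTG is found in it on both strands and which is also a CANNTG match. Egln3 held 1 match and Hk2 held 2. At least 1 start with ACGTG in this window was found for 16 of the 31 genes (51.6%) against 4998 of 27025 genes in the whole table (18.5%), and 42.2% of the 45 starts of the listed genes held it against 16.6% of all 32851 starts. CANNTG, which both strands share, was found before 64.4% of the starts of the listed genes and 66.2% of all starts. These counts describe letters in a window and not bound sites.

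Gapdh, Pkm and Aldoa were abundant in all 6 populations, while, of the genes with counts in every population, Pgam2, Egln3, Ldhb and Hk2 had the widest ranges, with highest over lowest ratios of 205, 18.1, 17.6 and 13.7. Levels are sums over the kept cells of a population, scaled with the TMM method and given as CPM. Because the 3′ assay counts about 1 tag per molecule, they can be set side by side between genes without a correction for length. Differences between genes in capture, or in reads shared with near-identical copies, were not corrected. In such sums fewer cells of a kind and less RNA per cell cannot be told apart. Together the 19 enzymes held 0.825%, 0.707% and 0.794% of the UMIs in young 1, 2 and 3 and 0.801%, 0.920% and 0.722% in old 1, 2 and 3.

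Gapdh, the dehydrogenase of the middle of the pathway, was the most abundant, at 2511, 2083 and 2507 CPM in young and 1844, 1956 and 2118 CPM in old cells. Pkm, a pyruvate kinase gene whose counts were not split by splice form, followed at 1865, 1078 and 1212 CPM in young and 1357, 1284 and 1268 CPM in old cells. Aldoa, the main aldolase, stood at 1185, 781 and 481 CPM in young and 807, 969 and 934 CPM in old cells. The young range of each of these genes reached into or enclosed the old range. Aldoc, the brain-type aldolase, was at most 0.362 CPM, so aldolase transcripts were almost all Aldoa. Pgam1, the ubiquitous mutase, had 829.3, 582 and 699 CPM in young and 559, 621 and 614 CPM in old cells.

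Tpi1, the triose phosphate isomerase, lay between 247 and 422 CPM, and Gpi1, which interconverts glucose and fructose phosphates, between 138 and 223 CPM. The kinase Pgk1 lay between 335 and 533 CPM in 5 populations and at 958 CPM in old 2, the population with the raised chromosome X on which Pgk1 lies, and the part of that shift was not tested. Highest over lowest, the 32 genes with counts in every population had a median ratio of 3.19, against 2.50 over the 14235 such genes among all those tested for age. Slc16a3 had 0 counts in young 1 and no ratio. Of the 32, the ratio was under 2 in 8 genes and over 5 in 10. Young 1 had the highest value in 12 genes, old 2 in 7, young 2 in 6, old 1 in 4, young 3 in 3 and old 3 in 1.

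**Figure D1:**
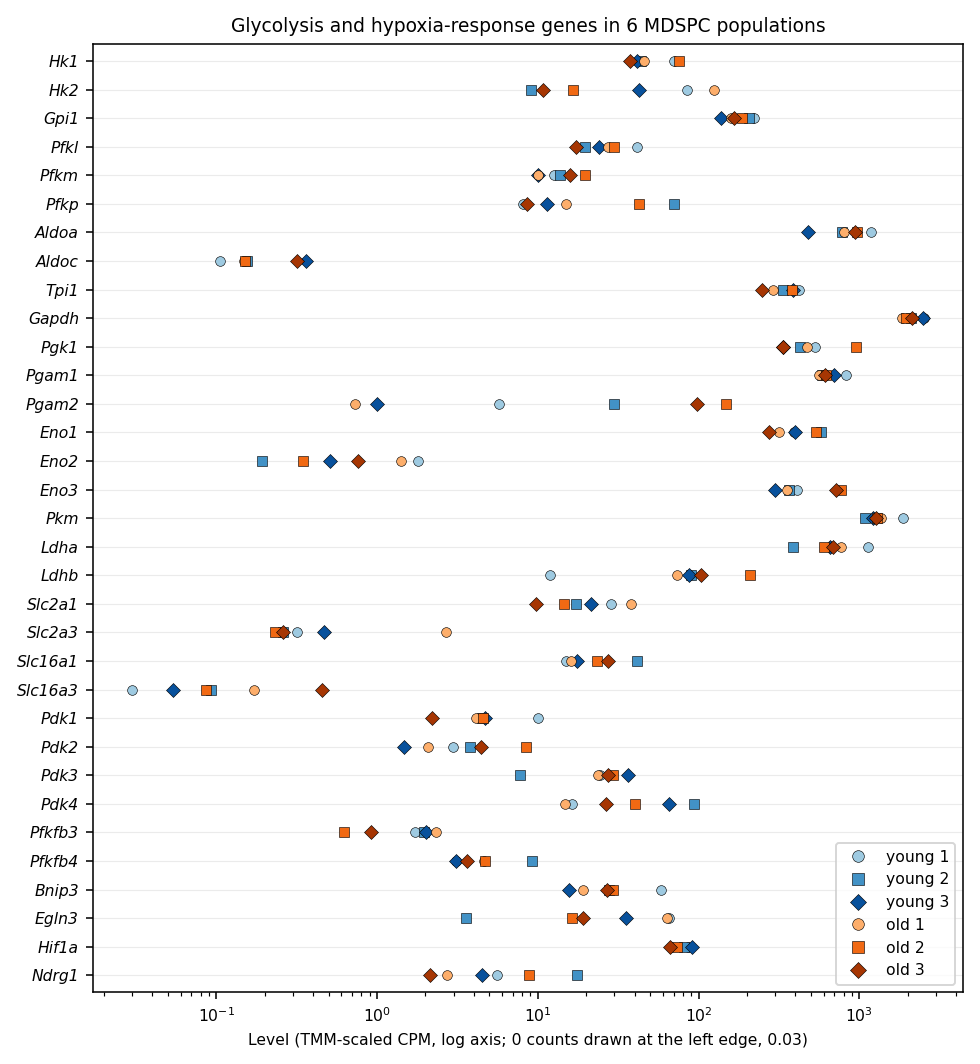
Level of each of the 33 genes in each population, as TMM-scaled CPM on a log axis; blue symbols are the 3 young and orange symbols the 3 old populations, and genes follow the order of the pathway. The symbols of Gapdh span 1844 to 2511 CPM, while those of Pgam2 span 0.727 to 149 CPM.

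The paralog that served a step differed between populations. Hk2, the inducible hexokinase of muscle and growing cells, had 84.9, 9.13 and 42.5 CPM in young 1, 2 and 3 and 125, 16.5 and 10.8 CPM in old 1, 2 and 3. Hk1, the widely expressed form, had 70.3, 43.7 and 41.4 CPM in young and 46.0, 75.1 and 37.7 CPM in old cells. Hk2 therefore held 54.7%, 50.7% and 73.2% of hexokinase UMIs in young 1, young 3 and old 1, and 17.3%, 18.0% and 22.3% in young 2, old 2 and old 3. The split cut across age, and the same populations also differed in myogenic markers, as given below. Hk2 lies on chromosome 6, raised by 0.37 in young 3, and the part of that shift was not tested.

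Pfkp, the platelet-type phosphofructokinase, had 70.0 CPM in young 2 and 42.9 CPM in old 2, and 8.12, 11.3, 15.1 and 8.61 CPM in young 1, young 3, old 1 and old 3. It thus took 67.6% of phosphofructokinase UMIs in young 2 and 46.5% in old 2, and 13.1% to 28.6% elsewhere. The liver-type Pfkl had 41.2, 19.7 and 24.1 CPM in young and 27.4, 29.6 and 17.2 CPM in old cells, and held the largest share in the 4 populations where Pfkp was low. The muscle-type Pfkm had 12.6, 13.8 and 10.1 CPM in young and 10.1, 19.7 and 16.0 CPM in old cells. Pfkp lies on chromosome 13, which stood at 0.32 in old 2 and -0.02 in young 2, and the part of these shifts was not tested.

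Ldha, which encodes the subunit favoured in lactate-producing tissue, had 1127, 387 and 660 CPM in young and 769, 601 and 687 CPM in old cells. Ldhb, the heart-type subunit, had 11.9, 89.3 and 86.6 CPM in young and 73.2, 210 and 104 CPM in old cells, and young 1 was far below all others. Ldhb accordingly held 1.05%, 18.8% and 11.6% of lactate dehydrogenase UMIs in young and 8.69%, 25.9% and 13.1% in old cells. Of the pyruvate dehydrogenase kinases, Pdk4, which is induced by fasting and fatty acids, took 85.4% and 60.7% of the family in young 2 and young 3 and 30.4% to 48.8% in the other 4 populations. Pdk4 had 16.4, 93.7 and 65.8 CPM in young and 14.8, 40.5 and 26.4 CPM in old cells. Pdk3, an X-linked form, had 24.4, 7.75 and 36.5 CPM in young and 23.7, 29.4 and 27.5 CPM in old cells, with young 2 lowest. Pdk1, the hypoxia-induced form, was at 2.20 to 10.1 CPM and Pdk2 at 1.47 to 8.43 CPM. Ldhb and Pdk4 lie on chromosome 6, raised by 0.37 in young 3, and Pdk3 on chromosome X, raised by 0.69 in old 2. The part of these shifts was not tested.

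**Figure D2:**
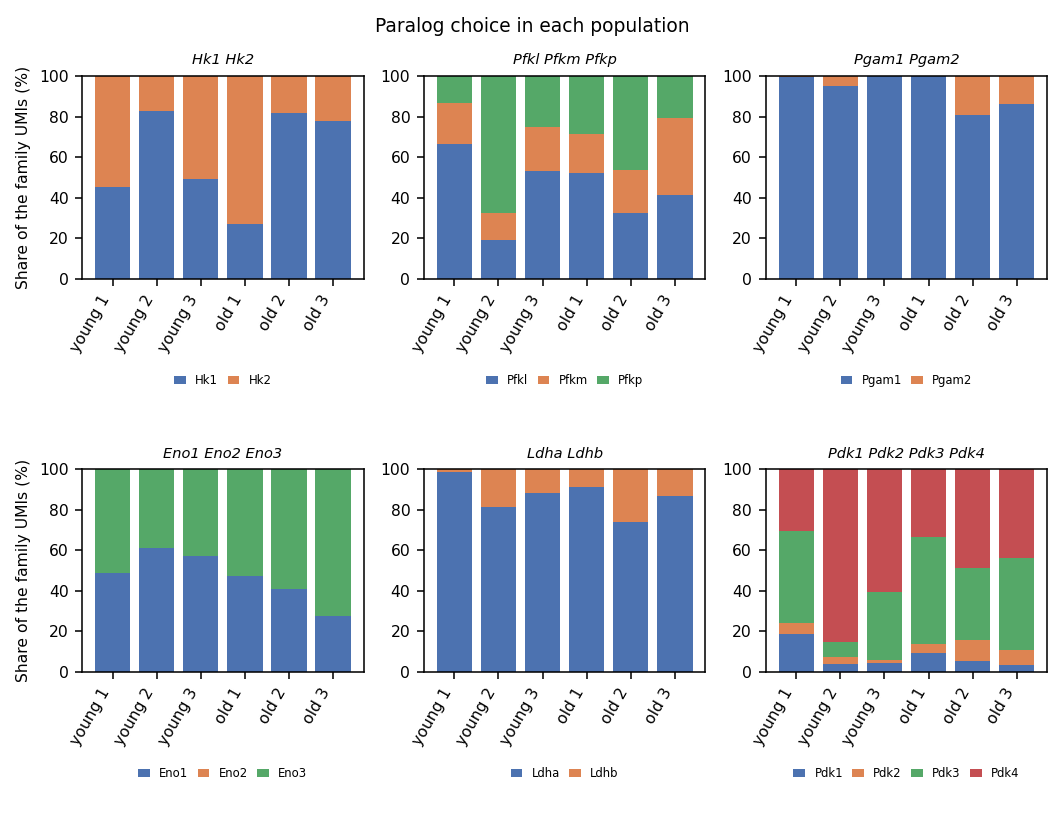
Share of each paralog in the UMIs of its family (percent, bars add up to 100) in the 6 populations, for hexokinases, phosphofructokinases, phosphoglycerate mutases, enolases, lactate dehydrogenases and pyruvate dehydrogenase kinases. Hk2 takes 50.7% to 73.2% of hexokinase UMIs in young 1, young 3 and old 1 and at most 22.3% elsewhere, and Eno3 takes more in every old than in every young population.

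Glucose and lactate carriers were few in number. Slc2a1, the glucose transporter of growing cells, had 28.5, 17.3 and 21.5 CPM in young and 38.2, 14.6 and 9.74 CPM in old cells. Slc2a3, the neuronal-type glucose transporter, was at 0.232 to 0.470 CPM in 5 populations and 2.68 CPM in old 1. The lactate carrier Slc16a1 lay between 14.9 and 41.6 CPM. The hypoxia-induced lactate exporter Slc16a3 gave 0, 18 and 11 counts in young and 29, 16 and 78 counts in old cells, at most 0.452 CPM, so the carrier of this pair was almost wholly Slc16a1. Pfkfb3 and Pfkfb4, which make the activator of phosphofructokinase, were at 0.625 to 2.33 CPM and 3.10 to 9.20 CPM.

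The hypoxia-response genes did not share 1 order of populations. Egln3 had 65.1, 3.59 and 35.6 CPM in young and 63.9, 16.2 and 19.2 CPM in old cells, an 18.1-fold range. Egln3, Hk2 and Slc2a1 were each highest in young 1, young 3 and old 1. Those 3 populations also had the lowest sums of myogenic progenitor markers, at 159, 101 and 127 CPM. Young 2, old 2 and old 3 had 1111, 762 and 1585 CPM. The 16 differentiation genes described below summed to 1170, 253 and 145 CPM in the former and 3251, 1584 and 14901 CPM in the latter. The part of this difference was not tested. Ndrg1, a stress-induced gene raised by low oxygen, had 5.60, 17.5 and 4.51 CPM in young and 2.71, 8.86 and 2.13 CPM in old cells, and like Pfkp it was highest in young 2 and next in old 2. Bnip3 had 58.7, 27.7 and 15.6 CPM in young and 19.2, 29.2 and 27.0 CPM in old cells, with young 1 alone above 30 CPM. Hif1a itself, whose product is controlled mainly by its stability, spanned only 66.5 to 91.4 CPM. Young 1 and old 1 are the populations counted on the shorter gene list, whose part in these orders was not tested beyond the term in the model and the values for the other 4 populations.

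**Figure D3:**
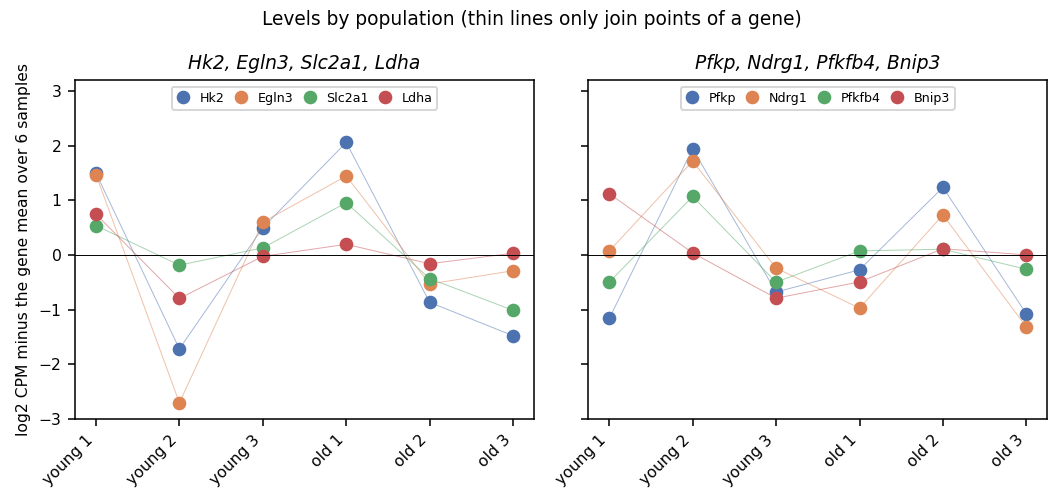
log2 CPM of 8 genes in each population minus the gene's mean over the 6 populations; thin lines only join the points of a gene. Hk2, Egln3 and Slc2a1 (left) are highest in young 1, young 3 and old 1, while Pfkp and Ndrg1 (right) are highest in young 2 and old 2.

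No gene of the list differed with age past the threshold. Each population was 1 replicate, and summed counts were compared with edgeR's quasi-likelihood test with a term for the gene list and Benjamini-Hochberg adjustment over 14512 genes. All 33 genes entered this test and 0 had an adjusted p under 0.05, where 0.00689% of all genes did. DESeq2 also called 0 of the 33. At an unadjusted p under 0.05 there were 2 of the 33 genes, Ldhb and Pdk4, both with an adjusted p of 1.00 in edgeR's quasi-likelihood test, beside 3.53% of all genes. The median log2 fold change of the 33 genes, old over young, was -0.11, with 14 above and 19 below 0, and that of all genes was -0.01. The 4 smooth muscle and pericyte markers summed to 16.1 to 22.2 CPM in young and 1.08 to 9.42 CPM in old cells, without overlap. Of the single genes only Rgs5 did not overlap, where 6.05% of all genes tested did not. Rgs5 had 0.927, 3.17 and 9.55 CPM in young and 0.119, 0.501 and 0.244 CPM in old cells. Of these markers 0 of 3 tested were called, and their part was not tested.

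The largest fitted differences were in genes with few counts or wide spread. Slc16a3 had a fitted log2 fold change of 2.68 ± 1.21 (SE), which rests on 0, 18 and 11 against 29, 16 and 78 counts. Pgam2 followed at 1.58 ± 2.08, with 5.77, 29.6 and 1.01 CPM in young and 0.727, 149 and 97.7 CPM in old cells. Old 1 was the lowest of all 6 and old 2 and old 3 the highest, and without young 3 the fitted value was -0.25. The next were Ldhb at 1.41 ± 0.49, Ndrg1 at -1.02 ± 0.72 and Pdk4 at -0.89 ± 0.35. The values of each of these genes overlapped between the age groups.

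Hif1a was the 1 gene of the 33 (3.03%) whose scaled levels did not overlap, at 85.5, 80.8 and 91.4 CPM in young and 67.0, 73.2 and 66.5 CPM in old cells. All 3 old values lay below all 3 young values, as happens in either direction for 6.05% of all genes tested. Its log2 fold change was -0.32 ± 0.19 (SE) with an adjusted p of 1.00 in edgeR's quasi-likelihood test. Hif1a (ENSMUSG00000021109) lies on the plus strand of chromosome 12 from 73901375 to 73947530 in GRCm38, and its counts are sums over the gene and not over a given exon.

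Paralog choice was compared with age in 10 families, with 1 share tested in each by an exact two-sided permutation test whose smallest possible p with 3 against 3 populations is 0.1. Eno3, the muscle-type enolase, held 51.1%, 38.7% and 42.7% of enolase UMIs in young and 52.6%, 59.0% and 72.4% in old cells, a mean of 44.1% ± 6.33 (SD, n = 3) against 61.3% ± 10.1 (SD, n = 3). The groups did not overlap, although young 1 and old 1 differed little (exact permutation p = 0.1, adjusted over the 10 families 0.5). This share also rose with muscle differentiation, which differed between populations. In cells with few differentiation UMIs, the low cells defined below, it was 50.2%, 32.2% and 42.3% in young 1 to 3. In low cells of old 1 to 3 it was 52.3%, 56.2% and 62.7%. Low cells were not matched between populations. Their median count of differentiation UMIs was 1 in old 3 and 0 elsewhere, and their differentiation genes summed to 18.6 to 288 CPM. The part of this difference was not tested. Enolase is split between Eno1, at 392, 577 and 400 CPM in young and 317, 537 and 274 CPM in old cells, and Eno3, at 411, 364 and 299 CPM in young and 353, 773 and 718 CPM in old cells. The neuronal-type Eno2 was at 0.192 to 1.80 CPM. Eno1b, a near-identical copy of Eno1, had 4.44 to 10.9 CPM, and reads could be split between the copies. Eno3 lies on chromosome 11, raised by 0.32 in old 2. Eno1 lies on chromosome 4, raised by 0.20 in young 2, where the Eno3 share was lowest. The part of these shifts was not tested. The share of Slc16a3 also did not overlap, on the few counts above, and the other 8 families overlapped.

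Differences that passed the test were found within populations, between cells at different levels of muscle differentiation. Each kept cell with at least 5000 UMIs was thinned to 5000, and its UMIs from 16 differentiation genes (Myog, Mymk, Mymx, Ckm, actins, troponins, myosins) were counted, none of which is in the list of 33. Cells with 0 to 2 such UMIs were called low, 3 to 19 middle and 20 or more high, which are ranges of a score and not cell types. High cells were 2.76%, 10.6% and 0.987% of the scored cells in young 1, 2 and 3 and 0.363%, 6.52% and 34.3% in old 1, 2 and 3. Cells at 2 or 3 UMIs numbered 99 to 2024 a population and cells at 15 to 25 numbered 5 to 808. Old 1 had only 36 high cells and was left out of the high level, which leaves 5 populations, each serving as its own control.

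In high cells the muscle paralogs of 3 steps rose while their ubiquitous partners fell, and Bnip3 rose while Hif1a, Ndrg1, Hk2 and both Pfkfb genes fell. Of 32 genes tested, 19 had an adjusted p under 0.05 in edgeR's quasi-likelihood test (59.4%), 8 higher and 11 lower, where 54.4% of all 14146 genes were called, 22.4% higher and 32.1% lower. The share called in the list was thus near that of all genes. The median log2 change of the list was -0.33 and that of all genes -0.11. Scaling by total counts moved these to -0.43 and -0.22, and the calls to 7 higher and 15 lower. The share of all genes called under that scaling was not computed.

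The phosphoglycerate mutases moved in opposite directions. Pgam2 had 0.696, 4.42, 0.191, 76.7 and 5.62 CPM in low cells of young 1, 2 and 3, old 2 and old 3, and 194, 212, 87.1, 598 and 266 CPM in high cells of the same populations. Every high value was above every low value, and the log2 fold change was 6.06 ± 0.81 (SE, adjusted p = 0.000164 in edgeR's quasi-likelihood test). Pgam1 had 839, 604, 698, 642 and 677 CPM in low and 441, 456, 392, 436 and 509 CPM in high cells, without overlap, a log2 change of -0.62 ± 0.07 (adjusted p = 9.4e-06). Pgam2 thus went from 0.0828%, 0.727%, 0.0273%, 10.7% and 0.824% of mutase UMIs in low cells to 30.5%, 31.8%, 18.2%, 57.8% and 34.3% in high cells. Pgam2 (ENSMUSG00000020475) lies on the minus strand of chromosome 11 from 5801640 to 5803733.

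Low cells of old 2 held more Pgam2 than low cells elsewhere, and at the middle level they reached 358 CPM, against 16.1, 38.4, 4.42, 10.7 and 22.5 CPM in young 1 to 3, old 1 and old 3. In old 2 the low level was 12.8% of the high level for Pgam2. In the other 4 populations it was 0.219% to 2.11%. Of 7 other muscle genes, of the sarcomere and the calcium store, Atp2a1 was also highest in old 2, at 3.08% against 0.267% to 2.56% elsewhere. The other 6 were higher in another population than in old 2. Ttn was at 6.49% in old 2 and 18.0% in young 2, and Neb at 10.2% in old 2, 15.3% in young 2 and 17.5% in old 3. In old 2 Klhl41 was at 8.63%, Tnnt2 at 2.15%, Actn2 at 0.980% and Casq2 at 0.568%, with up to 9.82%, 7.04%, 1.55% and 0.614% elsewhere. The comparison genes were chosen after their values were seen. RNA free in the droplets was not measured, and its part in these low levels was not tested.

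Enolase and phosphofructokinase followed the same course. Eno3 had 400, 277, 293, 695 and 539 CPM in low and 659, 897, 530, 1277 and 965 CPM in high cells, higher in 5 of 5 populations (log2 1.02 ± 0.11 SE, adjusted p = 7.27e-06 in edgeR's quasi-likelihood test). Eno1 had 395, 583, 399, 542 and 320 CPM in low and 245, 511, 277, 444 and 224 CPM in high cells, lower in 5 of 5 (log2 -0.46 ± 0.07). The mean Eno3 share of enolase went from 48.7% ± 11.9 (SD, n = 5) in low through 58.2% ± 10.5 in middle to 71.5% ± 7.01 in high cells. Eno3 (ENSMUSG00000060600) lies on the plus strand of chromosome 11 from 70657202 to 70662513.

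Pfkm had 11.9, 11.3, 9.83, 17.7 and 8.74 CPM in low and 35.3, 33.2, 23.5, 36.1 and 29.5 CPM in high cells, without overlap (log2 1.45 ± 0.12 SE, adjusted p = 2.56e-07 in edgeR's quasi-likelihood test). Its partners fell. Pfkl had 41.5, 20.1, 24.1, 30.6 and 19.03 CPM in low and 23.2, 18.2, 13.6, 22.0 and 14.99 CPM in high cells (log2 -0.49 ± 0.10). Pfkp had 8.19, 72.2, 11.4, 46.3 and 9.34 CPM in low and 3.31, 48.5, 4.32, 20.6 and 7.02 CPM in high cells (log2 -0.82 ± 0.12). Both were lower in high cells of 5 of 5 populations, and Pfkp was highest in young 2 and old 2 at both levels. The mean Pfkm share was 18.8% ± 4.83 (SD, n = 5) in low, 24.9% ± 6.68 in middle and 50.1% ± 10.6 in high cells, the last on 67 to 2923 phosphofructokinase UMIs a population.

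The shares of Pgam2, Pfkm and Eno3 rose by 32.1, 31.2 and 22.8 percentage points from low to high, each in 5 of 5 populations. An exact sign-flip permutation test over 5 pairs has 32 patterns and cannot go below 0.0625, the value each of these shares reached (0.125 adjusted over the 10 families). The shares of Aldoc and Slc2a3 were lower in 5 of 5 populations on few counts, and the other 5 families went both ways. The Hk2 share differed by -4.53 points with a range of -12.4 to 11.7, and the Ldhb share by 0.402 points with a range of -2.88 to 5.01, so neither paralog choice had 1 direction across populations.

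**Figure D4:**
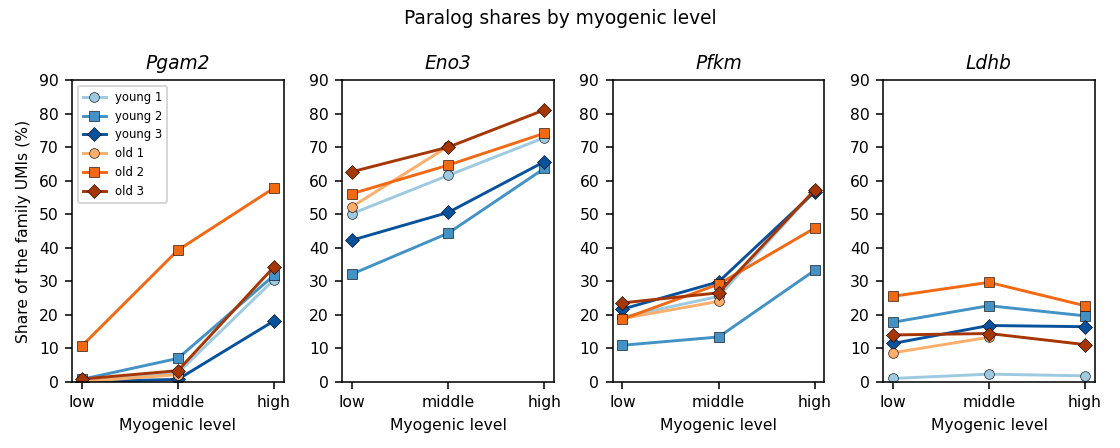
Share of Pgam2, Eno3, Pfkm and Ldhb in the UMIs of their families (percent) in low, middle and high cells of each population; lines join levels of a population, and old 1 has no high value. Pgam2, Eno3 and Pfkm go up from low to high in all 5 populations with both levels, and Ldhb does not.

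Aldoa and Gpi1 rose, and most other single-gene enzymes were not called. Aldoa had 1157, 691, 474, 854 and 653 CPM in low and 2025, 1350, 748, 1770 and 1394 CPM in high cells, higher in 5 of 5 populations (log2 0.93 ± 0.07 SE, adjusted p = 2.73e-07 in edgeR's quasi-likelihood test). Gpi1 had 221, 191, 136, 180 and 150 CPM in low and 241, 287, 138, 211 and 189 CPM in high cells. It rose by 0.28 ± 0.07 on the log2 scale, by little in young 3, and its call rests on young 2, without which it was 0.20 with an adjusted p of 0.0553 in edgeR's quasi-likelihood test. Tpi1 had 422, 314, 385, 359 and 228 CPM in low and 388, 452, 368, 507 and 281 CPM in high cells. It was higher in 3 of 5 populations with a log2 change of 0.22 ± 0.09 and an adjusted p of 0.0447 in edgeR's quasi-likelihood test, and lost its call in 9 alternatives. Gapdh (0.16 ± 0.07), Pgk1 (-0.17 ± 0.07), Pkm (-0.21 ± 0.09), Ldha (-0.06 ± 0.09) and Ldhb (0.14 ± 0.12) did not pass the threshold. Gapdh had 2508, 1969, 2487, 1900 and 1903 CPM in low and 2440, 2664, 2410, 2117 and 2427 CPM in high cells. Together the 19 enzymes held 0.688% to 0.899% of UMIs in low and 0.721% to 0.998% in high cells of the 5 populations.

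Both hexokinases and both Pfkfb genes fell. Hk2 had 85.6, 10.5, 42.6, 16.4 and 14.96 CPM in low and 55.6, 3.43, 21.6, 17.2 and 7.34 CPM in high cells, lower in 4 of 5 populations with old 2 the exception (log2 -0.81 ± 0.16 SE, adjusted p = 0.000851 in edgeR's quasi-likelihood test). Hk1 had 70.3, 42.9, 41.2, 77.7 and 42.3 CPM in low and 54.8, 43.7, 32.1, 41.7 and 30.7 CPM in high cells, and fell by 0.40 ± 0.10, lower in 4 of 5 populations with young 2 the exception. Pfkfb4 had 3.12, 10.1, 3.14, 5.01 and 4.31 CPM in low and 1.84, 3.21, 0, 2.19 and 2.91 CPM in high cells. Pfkfb3 had 1.76, 2.11, 2.03, 0.719 and 1.26 CPM in low and 0.736, 0.719, 1.85, 0 and 0.670 CPM in high cells. Pfkfb3 fell by 1.32 ± 0.33 and Pfkfb4 by 1.20 ± 0.23 on the log2 scale, each lower in 5 of 5 populations but on 0 to 38 and 0 to 165 counts a population in high cells. Slc2a1 (-0.34 ± 0.17), Slc16a1 (-0.02 ± 0.13) and Slc2a3 (-1.05 ± 0.61) were not called, and Slc16a3 did not pass the filter on low counts.

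Among kinases of pyruvate dehydrogenase, Pdk2 had 2.70, 2.66, 1.39, 7.43 and 2.73 CPM in low and 6.99, 8.57, 2.47, 11.6 and 5.64 CPM in high cells, higher in 5 of 5 populations (log2 1.19 ± 0.16 SE, adjusted p = 3.08e-05 in edgeR's quasi-likelihood test). Pdk3 had 24.5, 8.10, 36.2, 30.7 and 26.6 CPM in low and 12.9, 5.42, 25.9, 17.5 and 26.3 CPM in high cells. It fell by 0.54 ± 0.12 on the log2 scale, lower in 5 of 5 though by little in old 3. Pdk4 differed by -0.69 ± 0.28 and Pdk1 by 0.46 ± 0.21 without passing the threshold. Pdk4 was lower in 4 of 5 populations and higher in young 1, where it went from 15.5 to 35.0 CPM.

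The hypoxia-response genes split. Bnip3 had 57.8, 23.4, 15.3, 26.1 and 17.2 CPM in low and 83.5, 52.5, 30.3, 45.8 and 42.1 CPM in high cells, higher in 5 of 5 populations (log2 0.97 ± 0.11 SE, adjusted p = 4.28e-06 in edgeR's quasi-likelihood test). Hif1a had 86.0, 80.2, 90.7, 73.9 and 74.3 CPM in low and 46.7, 66.5, 64.9, 64.2 and 56.8 CPM in high cells, without overlap (log2 -0.43 ± 0.09, adjusted p = 0.000714). Ndrg1 had 5.58, 20.2, 4.41, 10.0 and 2.50 CPM in low and 2.58, 4.20, 4.32, 1.58 and 1.41 CPM in high cells, lower in 5 of 5 though by little in young 3 (log2 -1.54 ± 0.32). Egln3 differed by -0.31 ± 0.25 and was higher in 2 and lower in 3 populations.

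**Figure D5:**
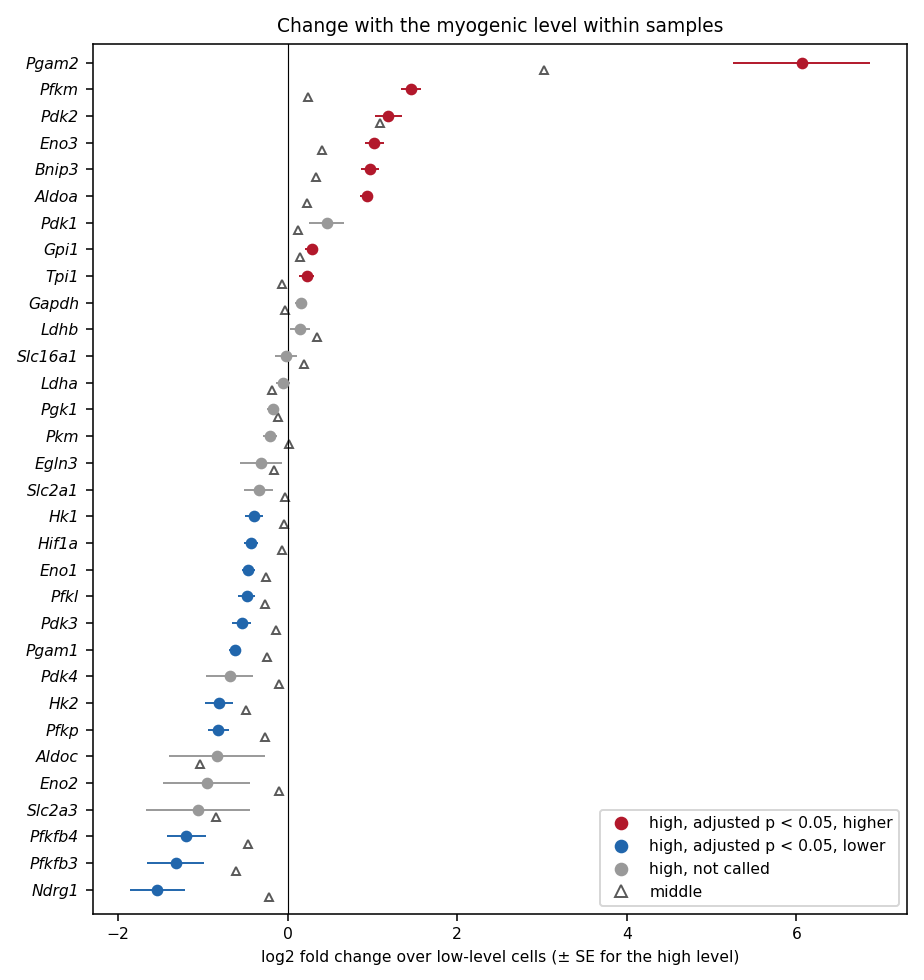
log2 fold change of each tested gene over low cells: filled circles with SE bars for high cells (red higher, blue lower, grey not called) and open triangles for middle cells. Pgam2 stands apart at 6.06, and the called genes run from there to Ndrg1 at -1.54.

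Cells at the high level also differed in cycling genes, mitochondrial RNA and markers of other cell types. In high cells 22.4% of all genes were called higher and 32.1% lower, and the marker counts that follow stand beside these shares. All 12 S and G2/M markers fell in high cells, with a median log2 change of -1.38. Their sum was 320 to 1355 CPM in high cells, without old 1, against 989 to 1931 CPM in low cells, old 1 included. The median mitochondrial share was higher in high than in low cells of all 5 populations, at 2.72% to 4.11% against 2.30% to 2.96%. When low and high cells were both limited to at most 2 cycling UMIs in 5000, a comparison added after seeing the data, Pgam2 was 5.51, Pfkm 1.56, Eno3 1.13, Aldoa 1.00 and Bnip3 0.88 higher on the log2 scale, and Hif1a differed by -0.44, Pgam1 by -0.78, Hk2 by -0.88 and Ndrg1 by -2.37. That comparison called 22 of 30 tested genes, where 52.9% of all genes were called. Of 6 fibro-adipogenic markers tested, 0 rose and 3 fell in high cells, Smoc2 (log2 -1.90 ± 0.22 SE), Pdgfra (-1.81 ± 0.61) and Col3a1 (-0.56 ± 0.22). Pdgfra had 0 to 7 counts in high cells and was not lower in young 3. The 7 markers of that list summed to 205 to 475 CPM in low cells of all populations, old 1 included. In high cells, without old 1, they summed to 145 to 471 CPM. Of 3 smooth muscle and pericyte markers tested, Rgs5 fell (-1.75 ± 0.60) on 1 to 14 counts in high cells. The sums of that list were 1.09 to 22.5 CPM in low cells with old 1 and 0.789 to 28.2 CPM in high cells without it. The parts of the mitochondrial share and of these markers were not tested.

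Middle cells were compared with low cells in all 6 populations. With edgeR's quasi-likelihood test, 9 of 32 genes had an adjusted p under 0.05, 6 higher and 3 lower, where 16.8% of all genes were called, 6.93% higher and 9.87% lower. Of the 9, 8 were also called in high cells in the same direction: Pgam2 at 3.02 ± 0.71 (SE, log2), Pdk2 at 1.09 ± 0.15, Eno3 at 0.40 ± 0.10, Bnip3 at 0.34 ± 0.10 and Aldoa at 0.23 ± 0.07 rose, and Hk2 at -0.49 ± 0.14, Eno1 at -0.26 ± 0.07 and Pgam1 at -0.24 ± 0.07 fell. Ldhb was called only here, at 0.35 ± 0.11, with 11.5, 81.5, 84.9, 73.6, 207 and 110.4 CPM in low and 20.04, 102, 115, 108, 233 and 109.5 CPM in middle cells. Pfkm, with 0.24 ± 0.11, was not called. This count is fragile: leaving out young 1 or old 2 left 4 calls, young 2 or old 1 left 5, and in the 4 populations of the longer gene list only Pdk2 was called. The share of all genes called in these fits was not computed, so a loss of power common to all genes cannot be told apart. Other genes also moved at this level. Of 12 S and G2/M markers 0 rose and 1, Tyms, fell (-0.63 ± 0.17), all 12 lay below 0 with a median of -0.59, and their sum was 524 to 1796 CPM in middle against 989 to 1931 CPM in low cells. Of 6 fibro-adipogenic markers 0 rose and 1, Smoc2, fell (-0.87 ± 0.19). The median mitochondrial share was higher in middle than in low cells of 6 of 6 populations, at 2.48% to 3.45% against 2.30% to 2.96%. The parts of these shifts were not tested.

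The change from low to high did not differ detectably between young and old populations. An interaction of level and age, fitted with edgeR's quasi-likelihood test over 14235 genes in 3 young and 2 old populations, called 0 of the 33 genes, where 0.00702% of all genes were called. At an unadjusted p under 0.05 there were 3 of the 33, Aldoa, Eno2 and Ldhb, beside 4.26% of all genes, and DESeq2 was not run on this term.

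In all, 4 other groups of genes around the pathway were read from the same fits. None of their genes was called with age: edgeR's quasi-likelihood test gave 0 calls and 0 genes at an unadjusted p under 0.05 in each of the 4 lists. Among further targets of the hypoxia-inducible factor the lowest p-values were those of Lox, a collagen cross-linking enzyme, at a log2 fold change of 0.93 ± 0.41 (SE), and Ankrd37 at -1.40 ± 0.78.

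Of 10 genes for the entry of pyruvate into the mitochondria, 7 rose and 1 fell in high cells, where 22.4% of all genes were called higher and 32.1% lower, and their median log2 change was 0.49 against -0.11 over all genes. At the middle level 3 rose and 0 fell, where 6.93% of all genes were called higher and 9.87% lower. Mpc2, a subunit of the mitochondrial pyruvate carrier, rose by 0.77 ± 0.06 (SE), and Pdhb and Pdha1, subunits of pyruvate dehydrogenase, by 0.73 ± 0.07 and 0.72 ± 0.08. Pdp2, a phosphatase that reactivates the complex, fell by 0.88 ± 0.24, lower in 4 of 5 populations with young 1 the exception and on 8 to 85 counts in high cells, and Pdp1 (0.33 ± 0.14) and Pcx (0.47 ± 0.20) did not pass the test.

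Of 19 genes tested in pathways that branch from or feed glycolysis, 3 rose and 9 fell in high cells, beside 22.4% and 32.1% of all genes. Those that rose were Pygm, the muscle glycogen phosphorylase (log2 4.08 ± 0.70 SE), Slc2a4, the insulin-responsive glucose transporter, and Gpd1, the cytosolic glycerol phosphate dehydrogenase. Slc2a4 had 1 to 17 counts a population in low and 1 to 77 in high cells, and Gpd1 had 7 to 56 in low and 1 to 22 in high cells. Neither reached the filter's limit of 0.320 CPM in low cells of any of 6 populations, and each did in high cells of 4 of 5, so the filter favoured a higher level there and their calls count for little. Of those that fell, Tkt and G6pdx, enzymes of the pentose phosphate pathway, had the largest changes at -1.79 ± 0.15 and -1.24 ± 0.11, followed by the mitochondrial Gpd2 at -0.96 ± 0.12. At the middle level 1 rose and 6 fell, beside 6.93% and 9.87% of all genes.

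Further targets of the hypoxia-inducible factor went both ways, with 6 higher and 8 lower of 19 tested in high cells, beside 22.4% and 32.1% of all genes, and a median log2 change of -0.30. At the middle level 1 rose and 3 fell, beside 6.93% and 9.87% of all genes. Gys1, the muscle glycogen synthase, rose by 1.39 ± 0.10 (SE), and Ankrd37 by 1.31 ± 0.16, each higher in 5 of 5 populations. The peptide hormone gene Adm was called with 0.97 ± 0.34 but was higher in only 2 of 5 populations. It had 0, 0.433, 0.00502, 0.578 and 1.60 CPM in low and 0, 1.77, 0, 0.526 and 2.63 CPM in high cells of young 1, 2 and 3, old 2 and old 3, on 0 to 149 counts in high cells. Ddit4, an inhibitor of growth signalling, fell by 1.92 ± 0.23, the adenylate kinase gene Ak4 by 1.20 ± 0.23 and Lox by 1.09 ± 0.33, the last lower in 4 of 5 populations and higher in young 2. Against the same shares, of 4 regulators of the factor tested in high cells Hif1an, an asparagine hydroxylase that restrains it (0.57 ± 0.11), and Arnt, its partner subunit (0.31 ± 0.11), rose and 0 fell.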

How the data were processed

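The values are raw UMI counts per gene and cell barcode, deposited by the authors as 1 matrix per population and, per the file headers, made with Cell Ranger 7.0.0 (young 1, old 1) or 7.2.0 (the others). The submitters' processing notes name the mm10 build. The rule for calling cells is not given in the sources used here. Barcodes with fewer than 1000 UMIs, fewer than 500 genes or 15% or more mitochondrial UMIs were left out. No doublet caller was run, and an alternative left out the deepest cells, at 0.8% per 1000 barcodes. Deposited totals were 133974782 to 196481316 UMIs a population. Counts were summed per population, or per population and level with at least 50 cells, and tested two-sided with edgeR 4.0.16 in R 4.3.3 (TMM, filterByExpr, robust quasi-likelihood, Benjamini-Hochberg at 0.05), with terms for gene list and age, or population and level. DESeq2 1.42.0 was the second tool. SE is the absolute log2 fold change over the square root of F. Tests were checked on simulated counts with less spread between samples than the data, whose fitted coefficients of variation were 0.563 for age and 0.152 by level. That check does not show power or error at the real spread. Of the kept cells, 1348 were under 5000 UMIs and had no level.

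The genes and lists were chosen with earlier results of these data known. Per-population values were given for genes called in any comparison, the 5 largest age differences and the tested families, and at most 3 genes per direction for other lists. Sample numbers were not taken to pair the populations. Deviations of same-numbered samples correlated at 0.396, 0.281 and -0.108, and 3 samples matched best with their own number, which does not settle pairing. No block entered the main age model. Alternatives covered tool, filter, scaling, gene list, level limits, cells and left-out samples. Those limited to the longer gene list by level, or to cells with few cycling UMIs, were added after seeing the data.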

Additional observations from a re-analysis of the deposited data

Results flagged for a closer look

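High minus low values were checked for a population far from the others in 29 cases, where chance marks about 1 in 20 groups. The log2(CPM + 1) change of Eno3 was 1.69 in young 2 and 0.72 to 0.88 in the other 4 populations. The Aldoc share of aldolase changed by -0.0763 percentage points in young 3 and by -0.0269 to -0.00962 elsewhere, on few counts. The Pfkfb4 share of its family changed by -60.7 points in young 3, where high cells held 0 Pfkfb4 and 3 Pfkfb3 counts, and by -1.02 to 12.6 points elsewhere.

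Of 31 genes checked for opposite directions with age, Ldhb alone had every young population higher (0.26 to 0.52) and both old populations lower (-0.27 to -0.23) in high than in low cells on the log2 scale, an old minus young difference of -0.64. The interaction term gave an unadjusted p of 0.00905 and an adjusted p of 0.994 in edgeR's quasi-likelihood test. How often all genes show such opposite directions was not computed, and with so few populations some do by chance.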

How the results depend on the processing

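With age, 0 genes were called under each of the 15 alternatives, with a median log2 change of -0.18 to -0.02. With the replicate number as a block, which the data did not show to pair the samples, 0 genes were called and the median was -0.05. The fitted Pgam2 difference turned to -0.25 without young 3, reached 3.01 without old 1, and kept its sign in every alternative but the first of these. High cells gave 18 to 24 calls, with 24 in the longer list alone. Shares of all genes called were computed only for the main fits and for high cells with few cycling UMIs. The other counts here have no such share beside them. Middle cells gave 4 to 7 calls with 1 population left out, 1 in the longer list alone and 2 in cells with few cycling UMIs, where old 1 also dropped out. Of single results by level, 353 kept direction and call and 58 kept direction only. Age groups did not overlap in 1 family share in low cells, that of Eno3. They did not overlap in 4 in the longer list and in 2 to 3 with 1 population left out. With fewer populations, as in the longer list or with 1 left out, groups fail to overlap more often by chance. Those counts therefore do not show more separation by age. The Pfkm share change was 37.7 points with the high level from 40 UMIs, in the same 5 populations as in the main comparison. The causes of these differences between alternatives were not tested. Depth is low for Aldoc, Eno2 and Slc2a3, which had 0 counts in high cells of at least 3 of 5 populations.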
